A study of Mus musculus with 24 samples.

Results

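The enzymes of serine synthesis and folate one-carbon metabolism were examined in mouse liver as a set of 10 genes: Phgdh, Psat1, Psph, Shmt1, Shmt2, Mthfd1, Mthfd2, Mthfd1l, Aldh1l1 and Aldh1l2. The set was chosen by biochemical role, with earlier results of these data known. All 10 were found by gene name among the 15160 genes of the deposited count table, and all 10 passed the filter on low counts, together with 13336 genes in all. The series asked whether hepatic NRF2, the transcription factor encoded by Nfe2l2, is needed for the liver's response to dietary methionine restriction (MR). Wild type (WT) mice were male and homozygous for a floxed Nfe2l2 allele (NRF2fl/fl). NRF2 KO mice were male littermates with the same floxed alleles and a Cre recombinase driven by the albumin promoter, which directed the deletion to the liver. With primers in the exon that Cre removes, the paper found Nfe2l2 mRNA reduced but not absent in NRF2 KO livers. It proposes that this remainder most likely came from resident macrophages. Control (Con) diet held 0.86% methionine and MR diet 0.17%, both without cysteine, and mice were fed from 8 weeks of age for 8 weeks. Energy expenditure was then recorded and the mice went back to their home cages for a time. The paper does not say that the diets ended in this period. Mice were killed after a 4 h fast, at a labelled age of 5 months. Each of the 4 groups had 6 mice and 1 QuantSeq 3′ library per mouse, a method that reads the 3′ end of each mRNA. The WT mouse CON_7604 and the WT mouse MR_7612, which the study set aside as outliers, were left out, which left 5 mice on each diet in WT and 6 on each in NRF2 KO.

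Serine is built from the glycolytic intermediate 3-phosphoglycerate by Phgdh, which oxidises it, Psat1, which adds the amino group, and Psph, which removes the phosphate. Serine hydroxymethyltransferases (Shmt1 in the cytosol, Shmt2 in mitochondria) then split serine into glycine and a carbon unit carried on tetrahydrofolate. The carried unit is interconverted by Mthfd1 in the cytosol and by Mthfd2 and Mthfd1l in mitochondria, where Mthfd1l releases formate, and formyl-tetrahydrofolate is oxidised to carbon dioxide by Aldh1l1 in the cytosol and Aldh1l2 in mitochondria, which yields NADPH. The pathway feeds purine synthesis and the remethylation of homocysteine to methionine, and serine also gives its carbon backbone to cysteine in transsulfuration. Phgdh, Psat1, Psph, Mthfd2 and Aldh1l2 are among the textbook targets of ATF4, the transcription factor of the amino acid response. These statements are background and were not measured here. Whether the other members are ATF4 targets as well was not examined. The targets were named with the results known, so being named here does not set members that responded apart from those that did not.

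In both genotypes MR raised the 3 enzymes of serine synthesis and the mitochondrial enzymes Mthfd2 and Aldh1l2. Of the other mitochondrial folate enzymes, Mthfd1l was called in WT only and Shmt2 in neither genotype. None of the 3 cytosolic folate enzymes was called. Depth ran from 6197291 to 22068338 counts per mouse. Levels are given as CPM (counts per 1000000 counts of the library), scaled by edgeR's trimmed mean of M values, and calls were made with edgeR's quasi-likelihood test at an adjusted p under 0.05 (Benjamini-Hochberg, over all 13336 genes). In WT liver 6 of the 10 members were called higher with MR, against 6.91% of all genes tested, and 0 were called lower, against 6.91%. In NRF2 KO liver 5 were called higher, against 6.23%, and 0 lower, against 6.34%. The same 5 members were called higher in both genotypes, against 3.17% of all genes. In every MR mouse 6 members lay above all Con mice in WT, against 5.32% of all genes, and 5 did so in NRF2 KO, against 2.62%. The median log2 fold change of the 10 members was 1.33 in WT and 0.92 in NRF2 KO liver, and that of all genes was -0.01 and -0.00. Because the set was chosen with earlier results of these data known, these shares and medians describe it and are not a test.

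**Figure D1:**
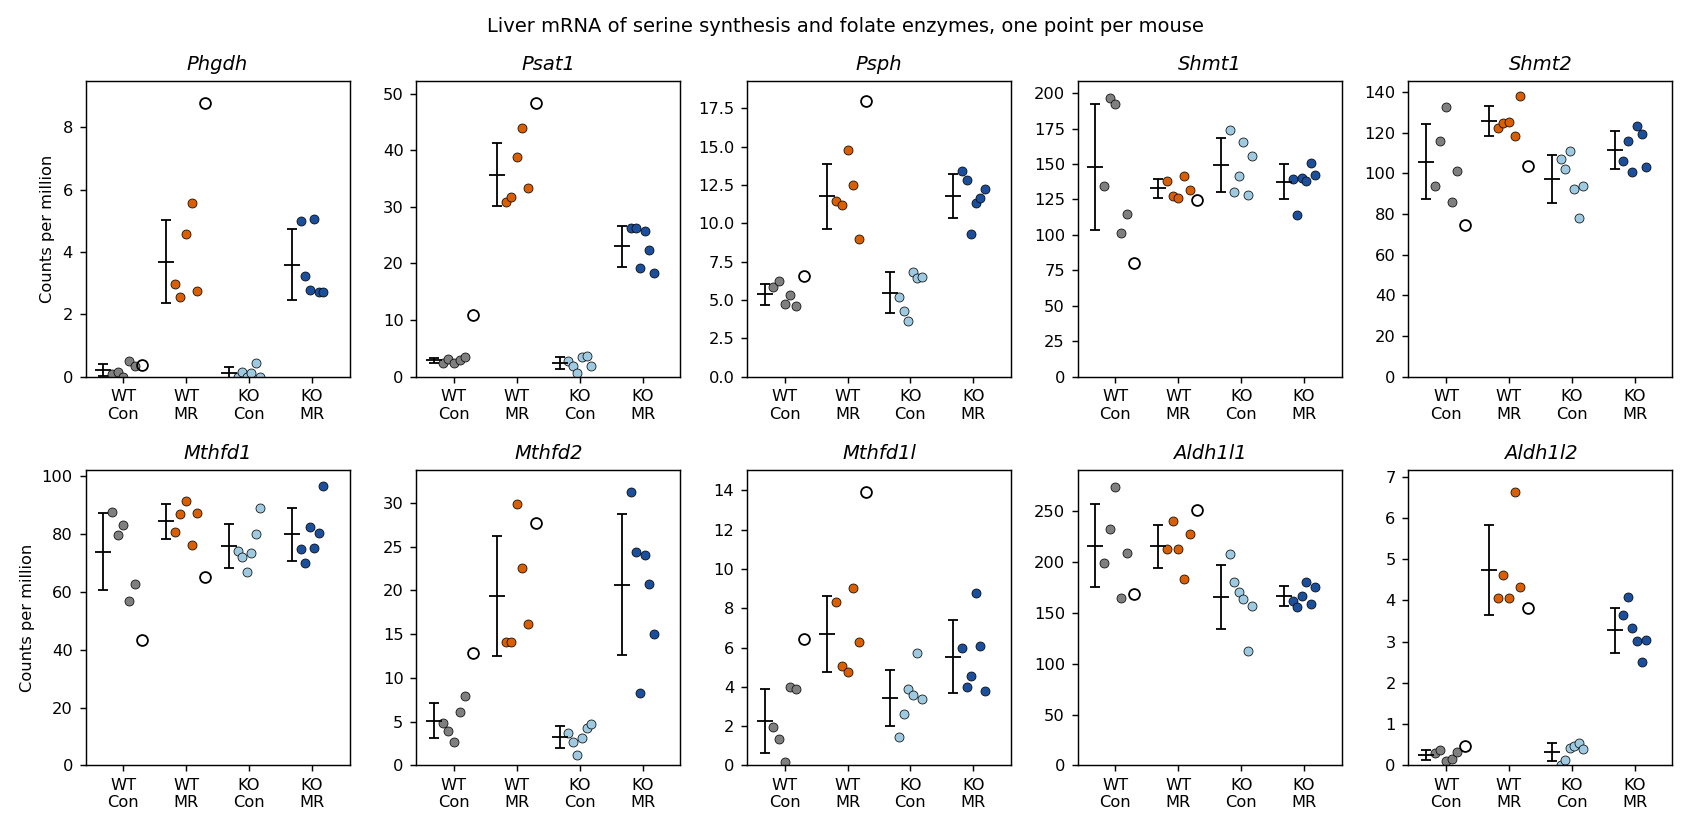
CPM of each enzyme (vertical axes, linear, from 0) in WT and NRF2 KO livers on either diet, with 1 filled point per mouse used, open points for the 2 mice left out and bars for mean ± SD of the mice used. Phgdh, Psat1, Psph, Mthfd2 and Aldh1l2 lay higher in every MR mouse used than in any Con mouse used of the same genotype, while Shmt1, Mthfd1 and Aldh1l1 overlapped between the diets.

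The upstream sequences of the responding genes are shown for the motifs that were searched in them. RefSeq (GRCm38.p6) gave promoters, 250 bases before to 50 after a start, for 9 of the 10 members, and Aldh1l2 had no entry. The core of the ATF4-C/EBP element, TGATGNAA, was searched on both strands, was in 3.97% of all 32851 promoters and matched 0 of the 10 promoters of these 9 members. The core of the antioxidant response element, TGACNNNGC, to which NRF2 binds, was searched in the same way, was in 12.4% of all promoters and matched those of Phgdh and Psph. With 0 matches of the first motif there was no overlap between the motifs in these genes. A match is a run of letters and not a measured site, and a lack of one says only that the letters are not in this window. Capitals mark the match, which lies on the opposite strand in both genes, at -53 to -45 from the RefSeq start of Phgdh and at 5 to 13 after that of Psph. Psat1 (the more upstream of its 2 RefSeq starts) and Mthfd2 are printed as responding genes with 0 matches, and all 4 genes lie on the minus strand, so the sequences read 5′ to 3′ along the gene from chr3:98339991-98340219, chr5:129787231-129787259, chr19:15925060-15925309 and chr6:83317607-83317854.
Phgdh: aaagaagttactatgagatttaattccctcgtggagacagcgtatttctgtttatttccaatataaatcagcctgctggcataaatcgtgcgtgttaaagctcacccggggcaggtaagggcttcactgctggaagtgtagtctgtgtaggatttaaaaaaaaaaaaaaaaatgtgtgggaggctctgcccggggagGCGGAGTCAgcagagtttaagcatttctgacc
Psph: acgcccagttGCGACGTCAttgcgcatct
Psat1: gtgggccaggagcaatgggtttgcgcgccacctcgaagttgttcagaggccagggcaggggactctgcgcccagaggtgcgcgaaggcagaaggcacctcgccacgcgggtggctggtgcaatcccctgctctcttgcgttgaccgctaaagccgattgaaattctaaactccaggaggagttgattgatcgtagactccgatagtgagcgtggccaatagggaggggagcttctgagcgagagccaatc
Mthfd2: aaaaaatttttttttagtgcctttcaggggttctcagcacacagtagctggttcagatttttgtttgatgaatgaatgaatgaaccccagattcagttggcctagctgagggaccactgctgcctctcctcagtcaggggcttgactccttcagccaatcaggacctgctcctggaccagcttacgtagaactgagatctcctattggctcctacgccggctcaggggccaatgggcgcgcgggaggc

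Phgdh, which commits 3-phosphoglycerate to serine, was close to the limit of detection on the Con diet and was read in every MR liver. It lies at chr3:98313170-98339990 on the minus strand (GENCODE M21, GRCm38). The WT Con mice had 0, 1, 2, 7 and 8 counts and the WT MR mice 32, 37, 45, 49 and 53 counts, which gave 0.213 ± 0.206 CPM (SD, n = 5) and 3.69 ± 1.32 CPM (SD, n = 5). In NRF2 KO Con liver the lowest, median and highest values were 0.00, 0.0662 and 0.454 CPM, with 9 counts in the 6 mice together, and in NRF2 KO MR liver 2.71, 3.01 and 5.07 CPM. All MR mice lay above all Con mice of their genotype. The log2 fold change of MR against Con was 4.01 ± 0.50 (SE, edgeR adjusted p = 2.51e-05) in WT and 5.05 ± 0.52 (SE, edgeR adjusted p = 2.13e-06) in NRF2 KO, and the few Con counts leave intervals of 2.97 to 5.05 and 3.97 to 6.13. Of the 50-base stretches in the last 500 bases of the annotated Phgdh transcripts, 46.7% also occur in 16 other annotated genes, Phgdh-ps1 among them, and none of the 16 is listed in the count table. The labels give reads of 50 bases and the methods reads of 75, and of 75-base stretches 27.1% are shared with other genes, so the Phgdh count is uncertain in how shared reads were assigned.

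Psat1, the aminotransferase of the second step, had the smallest adjusted p of the members in both genotypes. It lies at chr19:15904678-15947337 on the minus strand. The WT Con mice read 2.34, 2.51, 2.89, 3.19 and 3.53 CPM and the WT MR mice 30.8, 31.7, 33.4, 38.7 and 43.9 CPM. In NRF2 KO liver the lowest, median and highest values were 0.690, 2.36 and 3.63 CPM on Con and 18.3, 24.1 and 26.3 CPM on MR. The lowest MR mouse was thus well above the highest Con mouse in both genotypes. Psat1 rose 12.2-fold in WT (95% interval 8.69 to 17.0, log2 3.61 ± 0.23 SE, edgeR adjusted p = 1.84e-09) and 9.75-fold in NRF2 KO (7.11 to 13.4, log2 3.29 ± 0.22 SE, edgeR adjusted p = 3.45e-09). Only 1.26% of the 50-base stretches at its 3′ end are shared, with the gene model Gm12611, and 0% of the 75-base ones, and the shares were 0% at both lengths for the 8 other members apart from Phgdh.

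Psph, the phosphatase of the last step, rose by a smaller factor that was nearly the same in the 2 genotypes. It lies at chr5:129765558-129787449 on the minus strand. In WT liver the Con mice read 4.62, 4.75, 5.35, 5.85 and 6.24 CPM and the MR mice 8.98, 11.2, 11.4, 12.5 and 14.8 CPM. The NRF2 KO Con mice ran from 3.61 through a median of 5.84 to 6.81 CPM, and the NRF2 KO MR mice from 9.32 through 11.9 to 13.4 CPM. The diets did not overlap in either genotype. The fold was 2.20 in WT (1.76 to 2.76, edgeR adjusted p = 4.98e-05) and 2.17 in NRF2 KO (1.77 to 2.66, edgeR adjusted p = 2.27e-05).

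Among the mitochondrial folate enzymes Mthfd2, the dehydrogenase and cyclohydrolase that oxidises methylene-tetrahydrofolate, rose in both genotypes. It lies at chr6:83305691-83325908 on the minus strand. In WT liver the 5 Con mice read 2.71, 3.95, 4.90, 6.07 and 7.90 CPM and the 5 MR mice 14.1, 14.1, 16.2, 22.6 and 29.9 CPM. The NRF2 KO Con mice read 3.28 ± 1.26 CPM (SD, n = 6), with a highest value of 4.68 CPM, and the NRF2 KO MR mice 20.6 ± 8.05 CPM (SD, n = 6), with a lowest value of 8.25 CPM. MR mice varied widely but did not reach down to the Con mice. The log2 fold change was 1.89 ± 0.36 (SE, edgeR adjusted p = 0.00194) in WT and 2.68 ± 0.35 (SE, edgeR adjusted p = 9.12e-05) in NRF2 KO.

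Aldh1l2, the mitochondrial formyl-tetrahydrofolate dehydrogenase, was near the limit of detection on Con and was read in every MR liver. It lies at chr10:83487450-83534140 on the minus strand. The WT Con mice had 2, 2, 4, 5 and 8 counts and the WT MR mice 44, 47, 50, 61 and 89 counts. The NRF2 KO Con mice had between 0 and 8 counts and the NRF2 KO MR mice between 45 and 65. No Con mouse reached the MR mice. The fold was 18.1 in WT (10.9 to 30.1, edgeR adjusted p = 3.67e-08) and 10.2 in NRF2 KO (6.41 to 16.1, edgeR adjusted p = 7.59e-07). D10Wsu102e, the gene on the opposite strand at its last exon, had log2 fold changes of 0.03 and 0.05 and was not called.

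Mthfd1l, which releases formate from mitochondria, was called in WT liver only, and the difference between the genotypes did not pass its test. It lies at chr10:3973118-4167081 on the plus strand. The WT Con mice read 0.157, 1.37, 1.97, 3.87 and 3.97 CPM, the lowest from 3 counts, and the WT MR mice 4.76, 5.04, 6.30, 8.30 and 9.04 CPM. In NRF2 KO liver the values overlapped, with 1.45 to 5.72 CPM on Con (median 3.47) and 3.80 to 8.76 CPM on MR (median 5.27). The log2 fold change was 1.52 ± 0.45 (SE, edgeR adjusted p = 0.029) in WT and 0.73 ± 0.39 (SE, edgeR adjusted p = 0.247) in NRF2 KO, and the interaction of genotype and diet was -0.80 (95% interval -2.04 to 0.45, edgeR adjusted p = 0.806). The WT call was lost when only the WT mice were fitted (adjusted p = 0.105) and when WT mouse CON_7602 (adjusted p = 0.0516) or CON_7603 (0.068), or WT mouse MR_7609 (0.0665) or MR_7615 (0.0604), was left out, with log2 fold changes of 1.20 to 1.87 over the 22 mice left out in turn.

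Shmt2, the mitochondrial hydroxymethyltransferase at chr10:127517123-127522444, was the mitochondrial member with the smallest change. It read 106 ± 18.6 CPM in WT Con and 126 ± 7.39 CPM in WT MR liver (SD, n = 5 each), and 97.4 ± 11.9 CPM in NRF2 KO Con and 111 ± 9.39 CPM in NRF2 KO MR liver (SD, n = 6 each). The groups overlapped. Its log2 fold change was 0.25 (95% interval 0.04 to 0.46, edgeR adjusted p = 0.11) in WT and 0.19 (-0.00 to 0.39, edgeR adjusted p = 0.186) in NRF2 KO. Without WT mouse CON_7605 it was called in WT (log2 0.34, adjusted p = 0.0272), and scaling by library size alone called it in both genotypes. Ndufa4l2, on the opposite strand at its last exon, had 4 to 32 counts per mouse, against at least 785 for Shmt2.

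The 3 cytosolic folate enzymes did not pass the test in either genotype with the scaling used here. Shmt1, the cytosolic hydroxymethyltransferase at chr11:60788104-60811718, read 148 ± 44.2 CPM in WT Con and 133 ± 6.78 CPM in WT MR liver (SD, n = 5 each), and 149 ± 19.0 CPM and 137 ± 12.4 CPM in NRF2 KO liver (SD, n = 6 each). Its log2 fold change was -0.15 (95% interval -0.44 to 0.14) in WT and -0.12 (-0.38 to 0.15) in NRF2 KO, and the latter turned to 0.04 with scaling by library size alone. The overlap of the diets was complete in WT, where the 5 Con mice spread from 101 to 197 CPM around the 5 MR mice at 126 to 142 CPM. Mthfd1, the cytosolic enzyme that interconverts methylene-, methenyl- and formyl-tetrahydrofolate, at chr12:76255298-76319803, read 73.9 ± 13.4 and 84.4 ± 6.02 CPM in WT Con and MR liver (SD, n = 5 each), and 75.9 ± 7.64 and 79.9 ± 9.25 CPM in NRF2 KO liver (SD, n = 6 each). Its log2 fold change was 0.19 (-0.03 to 0.41) in WT and 0.07 (-0.13 to 0.28) in NRF2 KO. Scaling by library size alone called Mthfd1 in both genotypes (log2 0.30, adjusted p = 0.0212, and 0.23, adjusted p = 0.0453). Aldh1l1, the cytosolic formyl-tetrahydrofolate dehydrogenase at chr6:90486427-90600203, had log2 fold changes of -0.00 (-0.26 to 0.26) in WT and 0.01 (-0.23 to 0.24) in NRF2 KO.

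**Figure D2:**
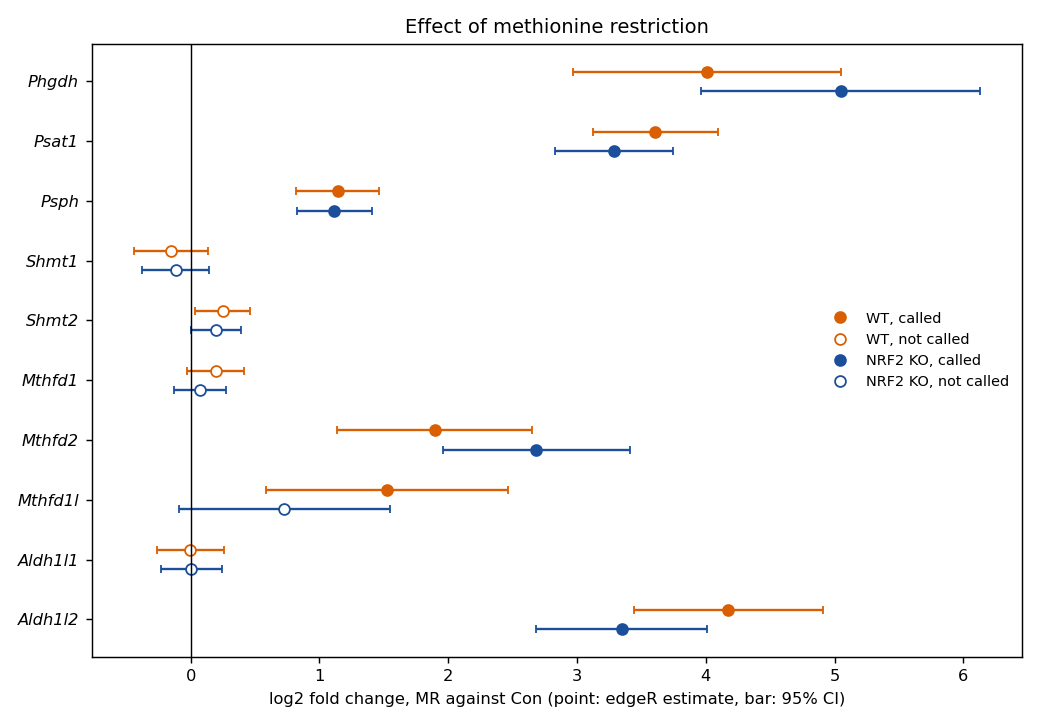
log2 fold change of MR against Con (horizontal axis, with 95% confidence interval) for each enzyme in WT and NRF2 KO liver, with filled points for genes called at an adjusted p under 0.05. Filled points stand at 1.12 and above for 6 enzymes in WT and 5 in NRF2 KO, while Shmt1, Mthfd1 and Aldh1l1 have intervals that include 0.

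The mitochondrial and cytosolic enzymes of the same reaction were then set against each other within each mouse, as the difference of their log2 CPM. This value compares changes, and its level is not a ratio of transcripts. Tests were two-sided exact permutation tests over mice, adjusted over 3 pairs and 4 comparisons, whose smallest possible p is 0.0079 for 5 mice against 5, 0.0043 for 6 against 5 and 0.0022 for 6 against 6. Aldh1l2 rose against Aldh1l1 by 3.71 in WT (exact p = 0.0079, adjusted p = 0.048, 5 of 5 MR mice above all Con mice) and by 3.05 in NRF2 KO (exact p = 0.0022, adjusted p = 0.026, 6 of 6 above). Aldh1l2 had already risen without overlap in these same mice while Aldh1l1 hardly moved. This result therefore restates the rise of Aldh1l2 and is not separate support. In WT the lowest MR mouse was at -5.68 and the highest Con mouse at -8.82. With any 1 of the 10 WT mice left out the difference was 3.46 to 3.80, and the adjusted p of 0.063 or 0.095 then says nothing of stability, because 4 mice against 5 cannot give an exact p below 0.016. Shmt2 was higher against Shmt1 with MR by 0.37 in WT (exact p = 0.032, adjusted p = 0.095) and by 0.31 in NRF2 KO (exact p = 0.028, adjusted p = 0.095), which did not pass after adjustment. For Mthfd1l against Mthfd1 the differences were 1.74 in WT (exact p = 0.063, adjusted p = 0.13) and 0.64 in NRF2 KO (exact p = 0.076, adjusted p = 0.13), and WT mouse CON_7605, at -8.19, was far below the next Con mice. Without that mouse the WT difference was 1.05. The 6 comparisons between genotypes gave adjusted p from 0.13 to 0.55.

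**Figure D3:**
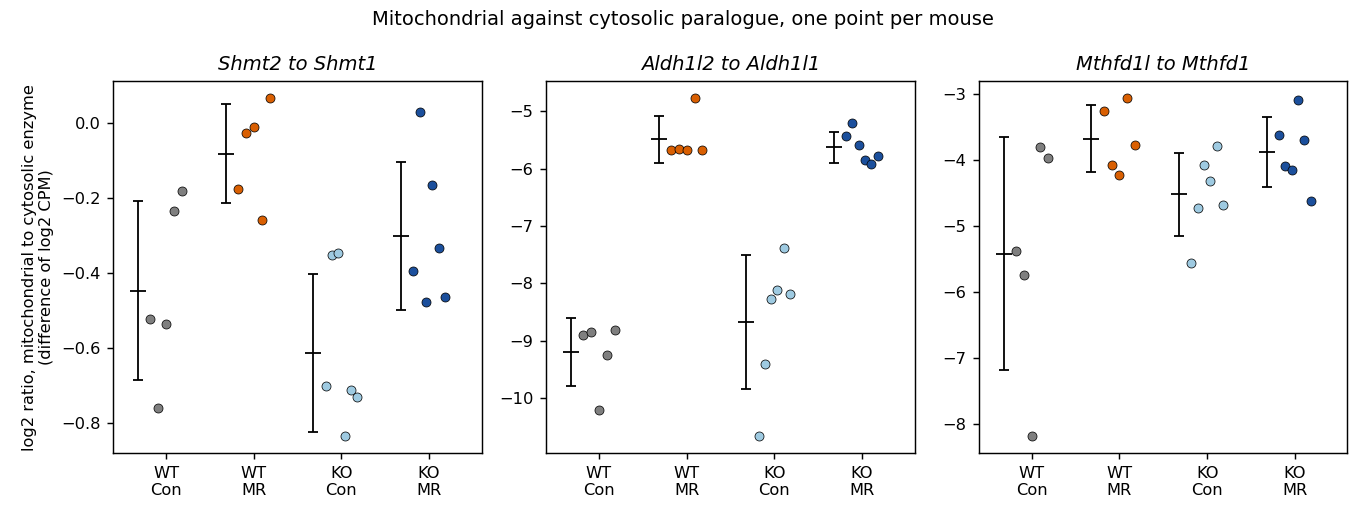
log2 ratio of the mitochondrial to the cytosolic enzyme (vertical axes, difference of log2 CPM), with 1 point per mouse and bars for mean ± SD, for Shmt2 to Shmt1, Aldh1l2 to Aldh1l1 and Mthfd1l to Mthfd1. Only for Aldh1l2 to Aldh1l1 were all MR mice above all Con mice, at -5.91 or higher against -7.39 or lower.

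No member passed the test for loss of hepatic NRF2 on either diet. On Con 0 of the 10 were called, against 2.07% of all genes, and 1 had an unadjusted p under 0.05 (Aldh1l1). On MR 0 were called, against 1.93% of all genes, and 3 had an unadjusted p under 0.05 (Psat1, Aldh1l1 and Aldh1l2). DESeq2 called 1 of these on MR, Psat1, and 0 on Con. Without overlap between the genotypes, Psat1 and Aldh1l1 were lower in all 6 NRF2 KO MR mice than in all 5 WT MR mice, that is 2 of 10 members, against 2.91% of all genes. The same 22 livers serve the diet and genotype comparisons, so the WT MR values below also enter the diet effects above.

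Psat1 on MR was the member nearest to a genotype call. The 5 WT MR mice read 30.8 to 43.9 CPM and the 6 NRF2 KO MR mice 18.3 to 26.3 CPM, and the log2 fold change of NRF2 KO against WT was -0.63 ± 0.19 (SE, 95% interval -1.02 to -0.24, edgeR adjusted p = 0.087). It was called with DESeq2 (log2 -0.63, adjusted p = 0.0389), in a fit of the MR mice alone (-0.62, adjusted p = 0.00537), with all 24 mice and quality weights (-0.64, adjusted p = 0.00919) and without NRF2 KO mouse CON_7620 (-0.63, adjusted p = 0.0093). On Con the groups overlapped, with a log2 fold change of -0.31 (-0.84 to 0.23). The MR rise itself differed between the genotypes by -0.32 (-0.99 to 0.35, edgeR adjusted p = 0.872), which is the test of whether NRF2 loss altered the response. That value lay between -0.54 and -0.17 with 1 mouse left out, and was 0.14 with all 24 mice and 0.10 with all 24 mice and quality weights. The paper's quantitative PCR marked Psat1 mRNA as lower in NRF2 KO than in WT on MR, and marked no difference on Con. Its text places Psat1 among genes whose rise with MR was intact without NRF2.

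Aldh1l1, a gene that did not pass for diet, was lower in NRF2 KO on both diets by nearly the same amount without being called. The WT Con mice read 165, 199, 209, 233 and 275 CPM, and the NRF2 KO Con mice ran from 112 to 208 CPM with a median of 167. The WT MR mice read 184, 213, 213, 228 and 241 CPM and the NRF2 KO MR mice 156 to 181 CPM, with no overlap. The log2 fold change was -0.38 ± 0.12 (SE, edgeR adjusted p = 0.105) on Con and -0.38 ± 0.12 (SE, edgeR adjusted p = 0.11) on MR. It was called on Con without WT mouse CON_7607 (-0.47, adjusted p = 0.0347), without NRF2 KO mouse CON_7617 (-0.47, adjusted p = 0.0409) or with scaling by library size alone (-0.40, adjusted p = 0.0324). On MR it was called without NRF2 KO mouse CON_7622 (-0.38, adjusted p = 0.0473), in a fit of the MR mice alone (-0.37, adjusted p = 0.00582) and with all 24 mice and quality weights (-0.38, adjusted p = 0.0201).

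Aldh1l2 on MR was 4.05 to 6.63 CPM in WT and 2.51 to 4.09 CPM in NRF2 KO liver, with a log2 fold change of -0.52 (95% interval -1.03 to -0.01, edgeR adjusted p = 0.353). With 1 mouse left out this ran from -0.59 to -0.39, the latter without WT mouse MR_7615, which had the highest value. The other 7 members had intervals that include 0 on both diets. For Phgdh on Con, with few reads, the interval was wide, from -2.72 to 0.66. It was also wide for Mthfd2 on Con, from -1.48 to 0.12. Mthfd2 had more reads there, 52 to 188 counts per mouse in WT and 22 to 72 in NRF2 KO. The intervals are narrow for Psph, at -0.29 to 0.35 on Con and -0.29 to 0.30 on MR, and for Shmt1, at -0.26 to 0.29 and -0.23 to 0.32.

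**Figure D4:**
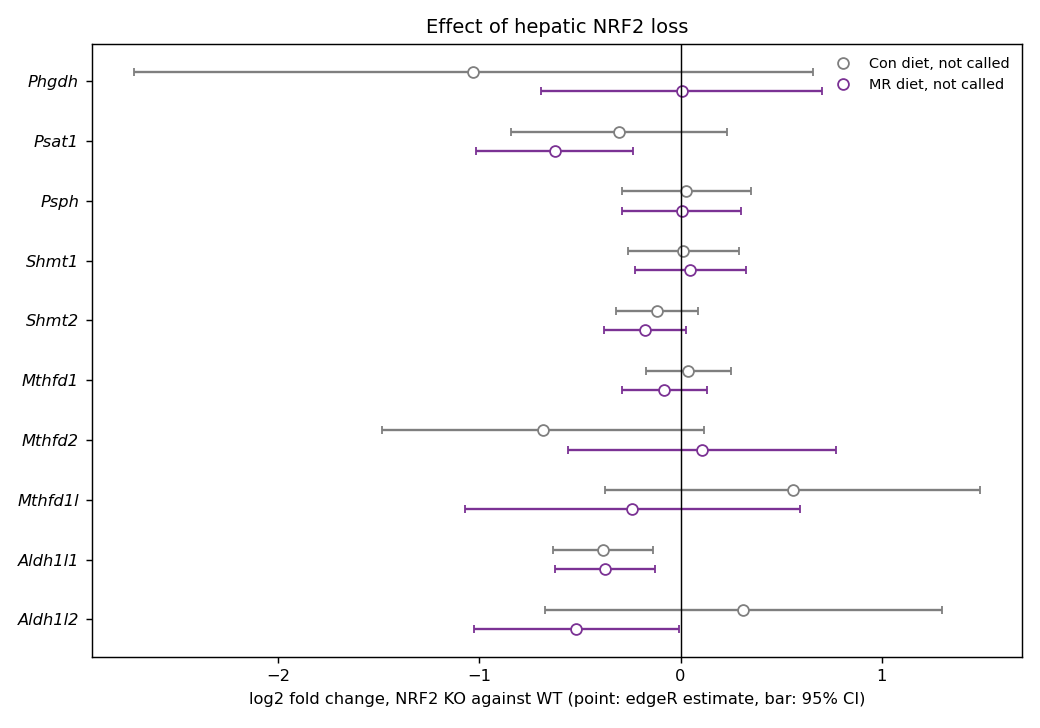
log2 fold change of NRF2 KO against WT (horizontal axis, with 95% confidence interval) for each enzyme on Con and MR diet. No point is filled because no member was called, and the intervals that lie wholly below 0 are those of Psat1 and Aldh1l2 on MR and of Aldh1l1 on both diets.

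The interaction of genotype and diet was tested directly and 0 of the 10 members were called, against 0.0450% of all genes. No member had an unadjusted p under 0.05 for it, and DESeq2 called 0 of the 10 as well. The adjusted p ran from 0.753 to 0.997. The estimates were positive for Phgdh (1.04, 95% interval -0.78 to 2.85, but 0.59 without WT mouse CON_7607 and 1.94 without NRF2 KO mouse CON_7622) and Mthfd2 (0.79, -0.25 to 1.83) and negative for Aldh1l2 (-0.83, -1.95 to 0.29), and for each of these genes the interval still held values beyond 1 on the log2 scale. For Psph the interval was -0.46 to 0.41, for Shmt1 -0.36 to 0.43, for Shmt2 -0.35 to 0.23, for Mthfd1 -0.42 to 0.18 and for Aldh1l1 -0.34 to 0.36.

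Of the 5 members called in both genotypes, Psat1, Psph and Mthfd2 varied together among mice of the same group. Phgdh varied with Psat1 and Mthfd2 but less with Psph, and Aldh1l2 varied only weakly with the others. These correlations describe 22 mice that share their diet groups and libraries, and were given no test. Over all mice Pearson's r of log2 CPM was 0.959 for Phgdh and Psat1, 0.942 for Psat1 and Psph and 0.933 for Psat1 and Mthfd2, values that span both diets and so hold the diet response by which these genes were called. After each group's mean was removed, r was 0.581, 0.642 and 0.689 for the same pairs, and 0.656 for Psph and Mthfd2. Phgdh had 0.562 with Mthfd2, 0.323 with Psph and 0.695 with Mthfd1l, which was called in WT only. For Aldh1l2, with few counts on Con, r within groups was 0.337 with Phgdh, 0.275 with Psph, 0.067 with Mthfd2 and 0.04 with Psat1. Among the enzymes not called for diet, r within groups was 0.808 for Shmt2 and Aldh1l1 and 0.600 for Shmt1 and Aldh1l1. It was negative between Aldh1l1 and Phgdh (-0.719) and between Aldh1l1 and Mthfd1l (-0.716). WT mouse CON_7605, with the highest Aldh1l1 of its group (275 CPM), had 0 counts of Phgdh and 3 of Mthfd1l. The reverse held in NRF2 KO mouse MR_7629, highest of its group for Aldh1l1 (181 CPM), Phgdh (5.07 CPM) and Mthfd1l (8.76 CPM). Phgdh had 0 to 8 counts per mouse on Con, so its r within groups rests partly on very few reads.

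**Figure D5:**
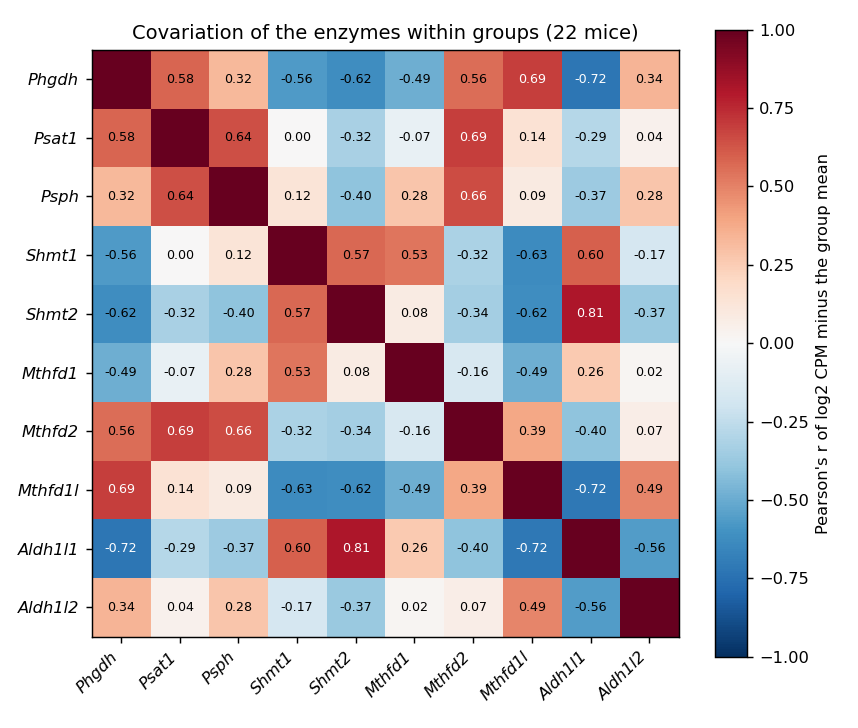
Pearson's r of log2 CPM after subtraction of the group mean, for each pair of the 10 enzymes over 22 mice (colour scale from -1 to 1, values in the cells). Psat1, Psph and Mthfd2 have r of 0.642 to 0.689 with each other, and Aldh1l1 has 0.808 with Shmt2 and -0.719 with Phgdh.

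The genes most like each member over the 22 mice, by r of log2 CPM among 11987 genes with at least 1 CPM on average, are given as a description. The mice span both diets, so members that responded to the diet are set beside other genes that responded to it. Asns (asparagine synthetase) and Gars (glycyl-tRNA synthetase) were among the 3 most like Phgdh, Psat1, Psph and Mthfd2, with r of 0.929 to 0.990, and the highest value was that of Psat1 and Asns. Pck2, the mitochondrial phosphoenolpyruvate carboxykinase, was the third for Phgdh (0.937) and Mthfd2 (0.915), Cyp39a1 the third for Psat1 (0.943) and Eif2s2 the third for Psph (0.933). Aldh1l2 was most like Slc6a13 (0.951), Asns (0.933) and Rpl7 (0.930). The most like Mthfd1l was Mat2a, the methionine adenosyltransferase (0.899), followed by Tuba8 (0.889) and Alkbh2 (0.878). Mthfd1 was most like Atp5j (0.901), Uqcrfs1 (0.879) and Ndufb5 (0.868), all of mitochondrial respiration. Aldh1l1 was most like Tmco1 (0.893), Arg1 (0.891) and Gchfr (0.888), Shmt2 like Rbm47 (0.903), Mfsd1 (0.832) and Copz2 (0.814), and Shmt1 like Fggy (0.862), Spns2 (0.814) and Cyp46a1 (0.798).

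Genes of neighbouring pathways were counted from lists compiled with earlier results of these data known. Of 15 regulators and effectors of the ATF4 response, 8 were called higher in WT and 9 in NRF2 KO, with 0 lower in both, where 6.91% and 6.23% of all genes were called higher. For NRF2 KO against WT, Trib3 was called lower on Con (log2 -0.86, edgeR adjusted p = 0.00993) and Slc7a11 lower on MR (log2 -2.29, edgeR adjusted p = 0.00953), and no other of the 15 was called on either diet. Asns read 4.79 ± 1.08 CPM in WT Con and 82.3 ± 7.40 CPM in WT MR liver (SD, n = 5 each), with log2 fold changes of 4.09 in WT and 3.86 in NRF2 KO (edgeR adjusted p = 9.10e-10 and 5.89e-10). Fgf21, the hepatic hormone of the amino acid response, rose by 2.43 and 2.11 on the log2 scale (edgeR adjusted p = 0.0128 and 0.0167). Slc7a11, the cystine transporter, was called in both, from at most 0.152 CPM in WT Con to 2.85 to 16.3 CPM in WT MR, and from at most 0.259 CPM in NRF2 KO Con to 0.136 to 4.56 CPM in NRF2 KO MR liver.

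Counts in the smaller lists below are to be read against the shares of all genes called, 6.91% higher and 6.91% lower in WT and 6.23% and 6.34% in NRF2 KO. Of the 6 carriers of serine and related amino acids, 2 were called higher in WT and 3 in NRF2 KO, with 0 lower. Slc38a2, a plasma membrane carrier of small neutral amino acids, rose by 0.59 and 0.45 on the log2 scale (edgeR adjusted p = 0.00185 and 0.00844), and the mitochondrial sideroflexin Sfxn2 rose by 0.24 and 0.25 (0.0486 and 0.0242). Of 8 enzymes of purine synthesis, which takes up formyl groups from folate, 2 were called higher in WT and 1 in NRF2 KO, Paics in both (log2 0.64 and 0.52, edgeR adjusted p = 0.000298 and 0.00107). Of 5 glycolytic enzymes around 3-phosphoglycerate, 0 were called in WT and 2 were called lower in NRF2 KO, Pklr (pyruvate kinase of liver) by -0.86 (edgeR adjusted p = 0.0254) and Pgam1 by -0.48 (0.0475). In WT the values of these were -0.62 (0.131) and -0.36 (0.17).

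Of 11 enzymes measured that break down glycine and serine, 1 was called lower in WT (Agxt, the peroxisomal alanine-glyoxylate aminotransferase, log2 -0.44, edgeR adjusted p = 0.0185) and 0 in NRF2 KO, where Agxt was at -0.25 (0.146). Of 16 genes measured for folate uptake and interconversion, 3 were called higher and 1 lower in WT, against 6.91% of all genes each way, and 0 higher and 2 lower in NRF2 KO, against 6.23% and 6.34%. Folr2, a folate receptor of macrophages, fell in both (log2 -0.71 and -0.45, edgeR adjusted p = 0.00378 and 0.035), beside markers of Kupffer cells, the resident macrophages, of which 3 of 7 were called lower in WT and 1 of 7 in NRF2 KO. Of 7 enzymes that draw one-carbon units from choline, 1 was called higher and 2 lower in WT and 0 higher and 2 lower in NRF2 KO, beside the same shares of all genes, with Aldh7a1, a betaine aldehyde dehydrogenase, lower in both (log2 -0.48 and -0.54, edgeR adjusted p = 0.0232 and 0.00739). The median log2 fold changes of the 6 lists other than that of ATF4 lay between -0.37 and 0.26 in both genotypes.

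Other features of the libraries moved with the diet. Of 5 bile duct markers, 4 were called lower in WT and 1 in NRF2 KO, and their summed level went from 49.0 to 72.7 CPM in WT Con to 20.9 to 28.3 CPM in WT MR liver, and from 31.7 to 53.1 CPM to 20.6 to 29.0 CPM in NRF2 KO liver. Of 8 stellate cell markers, 5 were called lower in WT and 4 in NRF2 KO (410 to 689 CPM against 359 to 448 CPM in WT, 472 to 560 CPM against 388 to 513 CPM in NRF2 KO). The 5 hepatocyte markers listed, Alb among them, summed to medians of 106500 CPM in WT Con and 82260 CPM in WT MR liver, and of 119500 and 98890 CPM in NRF2 KO liver, with 1 of 5 called lower in WT and 2 of 5 in NRF2 KO. Alb, at a mean of 71950 CPM in WT Con, held most of this sum and was not called in either genotype. Dcn, at a mean of 418 CPM in WT Con, held most of the stellate cell sum and was called lower in WT only. Of 8 markers of pericentral hepatocytes, 2 were called lower in WT and 4 in NRF2 KO, and of 6 periportal markers 0 were called in either. Mitochondrially encoded genes took 14.0% to 19.7% of counts in WT Con, 13.4% to 15.5% in WT MR, 12.5% to 16.3% in NRF2 KO Con and 11.3% to 13.4% in NRF2 KO MR liver. In bulk liver, fewer cells of a type and less RNA per cell cannot be told apart, and the part of these shifts in the members' changes was not tested. Markers of pancreatic acinar cells, 4 of 5 listed, summed to 28.4 CPM in NRF2 KO mouse MR_7632, to 4.00 CPM in NRF2 KO mouse CON_7622 and to at most 0.779 CPM in the other 20, and the 5 members called in both genotypes remained called without either mouse.

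As a check of the labels, Nfe2l2 3′ reads were at 228 to 339 CPM in NRF2 KO Con and 202 to 249 CPM in NRF2 KO MR liver, and at 94.0 to 107 CPM in WT MR liver. These 3′ reads need not come from the excised part of the gene and so do not show its loss. In WT Con 4 mice read 106 to 125 CPM, and the library labelled WT CON_7607 read 324 CPM, within the range of the NRF2 KO mice. Without that library the log2 fold changes of MR in WT were 4.46 for Phgdh, 3.61 for Psat1, 1.15 for Psph, 1.96 for Mthfd2, 1.79 for Mthfd1l and 4.06 for Aldh1l2, and all 6 were called. For NRF2 KO against WT on Con, its removal moved Phgdh from -1.03 to -0.58, turned Shmt1 to -0.10 and Mthfd1 to -0.04, and led to the call of Aldh1l1 given above. In the interaction it moved Phgdh from 1.04 to 0.59 and Mthfd1l from -0.80 to -1.06, and no member was called.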

How the data were processed

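The authors made the count values, raw reads per gene in 24 QuantSeq 3′ libraries, with the library maker's pipeline and deposited them. They also deposited a signal table, the same counts divided by 1 size factor per mouse (DESeq2 1.18.1 in R 3.4.3 and build GRCm38, mm10, per the submitters' processing notes), which the raw counts matched to a relative deviation of 5.1e-15. The aligner and its annotation are not given in the sources used here. Symbols missing from the file and gene positions were taken from GENCODE M21 (GRCm38), and promoters from RefSeq (GRCm38.p6).

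The 22 mice were tested on counts with edgeR 4.0.16 (R 4.3.3): TMM scaling, the filter by expression (13336 of 15160 genes kept), robust dispersions and quasi-likelihood F-tests, with 1 mean for each of the 4 groups and Benjamini-Hochberg adjustment over all genes tested. The contrasts were MR against Con in each genotype, NRF2 KO against WT on each diet, and their interaction. The intervals are 95% intervals of the model, and log2 CPM used a prior count of 2. The code was tested on simulated counts. Each mouse was 1 sample, and labels gave no batch. Among the mice used, no pair of libraries of the same group agreed within sampling noise, and pairs across groups were not compared. Precision is limited by depth for Phgdh and Aldh1l2 on Con (0 to 8 counts per mouse).

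The members and all lists were chosen with earlier results of these data known. All 10 members are named, with the 3 genes of highest r for each and, from each list, up to 3 genes with the largest change among those called in both genotypes, otherwise in either. Alternatives were DESeq2 size factors, library size alone, no filter, at least 10 counts in every mouse, limma 3.58.1 on log2 of the deposited signal plus 1, DESeq2 1.42.0, fits of the compared groups alone, 24 mice without and with quality weights, and fits that left out 1 of the mice at a time.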

Additional observations from a re-analysis of the deposited data

Results flagged for a closer look

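Of 40 sets of values (10 genes in 4 groups), 3 held a mouse that stood apart from the rest of its group by Dixon's criterion, which chance alone meets in about 1 of 20. Phgdh read 0.454 CPM in NRF2 KO mouse CON_7622, against 0.141 CPM in the next. Shmt1 read 113.7 CPM in NRF2 KO mouse MR_7627, against 138 CPM in the next above it. Aldh1l2 read 6.63 CPM in WT mouse MR_7615, against 4.62 CPM in the next.

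Among the 2 mice left out of the comparisons, WT mouse CON_7604 lay above all 5 WT Con mice used for 5 of the 6 members called in WT. It read 10.9 CPM for Psat1 against at most 3.56 CPM, 6.56 against 6.30 CPM for Psph, 12.8 against 7.97 CPM for Mthfd2, 6.44 against 4.01 CPM for Mthfd1l and 0.481 against 0.384 CPM for Aldh1l2, all scaled over 24 mice. WT mouse MR_7612 lay above the same WT Con mice for all 6, with 8.77 CPM for Phgdh, 48.3 CPM for Psat1, 18.0 CPM for Psph, 27.7 CPM for Mthfd2, 13.9 CPM for Mthfd1l and 3.82 CPM for Aldh1l2.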

How the results depend on the processing

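The MR calls of Phgdh, Psat1, Psph, Mthfd2 and Aldh1l2 kept their direction and remained called in both genotypes under every alternative that could be fitted, including each of 22 mice left out. A minimum of 10 counts in every mouse removed Phgdh, Mthfd1l and Aldh1l2 and gave no value for them. No paired analysis was possible because the groups share no replicate numbers. Depth limits the folds of Phgdh and Aldh1l2, which had 0 to 8 counts per Con mouse. Causes of the changes below were not tested. Over all fits other than those that leave out a mouse, 382 member values kept side and direction, 11 became called, 1 lost its call and 29 changed sign, none of them called. With all 24 mice, mean Psat1 in WT Con was 4.25 CPM.

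Genes called for MR in NRF2 KO numbered 1677, and 2785 with library size alone or 2693 with quality weights. For NRF2 KO against WT on Con 276 were called, and 451 with DESeq2 or 99 with only the groups compared. On MR 258 were called, and 496 with DESeq2, 600 with only the groups compared or 604 with quality weights. For the interaction 6 were called, and 35 with DESeq2. Library size alone moved the median of all genes by 0.09 in WT and 0.15 in NRF2 KO, and the split of MR calls from 922 higher and 921 lower to 1434 and 526 in WT, and from 831 and 846 to 2397 and 388 in NRF2 KO. Less that shift, the log2 fold changes of MR with this scaling were 0.27 and 0.20 for Shmt2 and 0.22 and 0.07 for Mthfd1, which were called there in both genotypes (before the shift 0.36 and 0.36, 0.30 and 0.23). Shmt2 was also called in WT with quality weights (0.31, adjusted p = 0.0366).

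With each of the 22 mice left out in turn, genes called ran from 1416 to 1974 for MR in WT, 1188 to 2027 for MR in NRF2 KO, 181 (without WT mouse CON_7603) to 314 for NRF2 KO on Con, 191 to 336 for NRF2 KO on MR and 3 to 12 for the interaction, where 10 mice each moved the count by over 1.5 times: it was 3 without WT mouse MR_7611 or MR_7616 or NRF2 KO mouse CON_7617, CON_7618 or MR_7625, and 10 to 12 without WT mouse CON_7605, CON_7607, CON_7608 or MR_7613 or NRF2 KO mouse MR_7632. Member log2 values that changed sign among these fits, none of them called, ran from -0.123 to 0.169 (Phgdh) and -0.053 to 0.322 (Mthfd2) for NRF2 KO on MR, from -0.048 to 0.131 on Con, -0.080 to 0.098 on MR and -0.126 to 0.070 in the interaction for Psph, from -0.096 to 0.130 on Con and -0.081 to 0.140 in the interaction for Shmt1, from -0.143 to 0.007 in the interaction for Shmt2, from -0.042 to 0.097 on Con for Mthfd1, and for Aldh1l1 from -0.082 to 0.096 for MR in WT, -0.083 to 0.089 for MR in NRF2 KO and -0.085 to 0.095 in the interaction. The ratio of Aldh1l2 to Aldh1l1 ran from -0.219 to 0.046 for NRF2 KO on MR and from 3.456 to 3.804 for MR in WT.

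In the other fits the values that changed sign were these. With limma on the deposited signal they were -0.027 for Phgdh (NRF2 KO on MR), 0.009 for Psph and -0.010 for Shmt1 (interaction) and 0.015 for Aldh1l1 (MR in WT). With DESeq2 Phgdh was at -0.013 for NRF2 KO on MR. With all 24 mice they were -0.337 for Phgdh, -0.124 for Psph and -0.002 for Mthfd2 (NRF2 KO on MR), -0.031 for Psph (NRF2 KO on Con), 0.087 for Aldh1l1 (MR in WT), and 0.139 for Psat1, -0.055 for Shmt1 and -0.076 for Aldh1l1 (interaction). With quality weights they were -0.024 for Phgdh and -0.013 for Psph (NRF2 KO on MR), -0.105 for Psph and -0.593 for Aldh1l2 (NRF2 KO on Con), 0.058 in WT and -0.042 in NRF2 KO for Aldh1l1 (MR), and 0.100 for Psat1, 0.092 for Psph, -0.094 for Shmt1, -0.100 for Aldh1l1 and 0.117 for Aldh1l2 (interaction). With library size alone they were 0.034 for Psph and 0.0 for Shmt2 (interaction), 0.041 for Shmt1 (MR in NRF2 KO) and 0.104 for Aldh1l1 (MR in WT). Without a filter Aldh1l1 was at 0.002 for MR in WT.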
